A study of Saccharomyces cerevisiae with 75 samples.

Results

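Introns are rare in the budding yeast Saccharomyces cerevisiae, and outside the ribosomal protein genes they are scattered over genes of many unrelated functions. The genes described here are 89 of the 982 genes that a splicing-specific array names. They are the genes printed as exactly 3 probes, at 6 spots each, that do not encode ribosomal proteins, after a stated list of genes was set aside by name. The array held 222 genes with 3 probes in all, of which 91 were ribosomal and 42 were non-ribosomal genes of that list. The 89 genes include the cap-binding protein gene STO1, the vacuolar SNARE gene NYV1, the GMP synthesis gene IMD4, the elongation factor genes EFB1 and TEF4, and the stress factor gene HAC1. Their probes are kept apart below, because probes of 1 gene did not move alike.

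Each array compared RNA of 2 strains, one labelled with Cy5 and the other with Cy3, and the deposited value of a spot was taken as the log2 ratio of the first strain over the second, a scale and direction that were inferred from the values. The strains are labelled Dnpl3, Dgbp2, Dhrb1, Dgbp2Dhrb1, Dupf1, Dnpl3Dupf1 and, once, Dupf1+Dnpl3, where D marks a deletion. The npl3 deletion was set against wild type in 6 extract pairs after 30 min at 37 °C, in 7 at 30 °C, in 2 after 15 min at 37 °C, and in a single pair at 16 °C (30 min) and another at 37 °C (45 min). The gbp2 hrb1 double deletion had 2 extract pairs at either of 30 °C and 37 °C (30 min), and the gbp2 and hrb1 single deletions had 1 and 2 each. The npl3 upf1 double deletion and the upf1 deletion had single extract pairs, against wild type, against each other or against the npl3 deletion, at 30 °C or, for 15 min, at 37 °C. For 30 min at 37 °C the arrays hold 1 pair of Dupf1 over wild type and 1 of Dupf1+Dnpl3 over Dnpl3, a strain that was not set against wild type. Another 2 arrays, both of 37 °C for 30 min, set prp2-1 against prp5-1 and against prp8-1, and these stayed out of the fit. The labels give no growth medium, strain background or cell density, and do not say whether extracts of a group came from separate cultures. The p-values therefore measure the spread between extracts, pooled over all strains fitted, which may be technical. Groups of 1 or 2 extract pairs have little or no spread of their own. Their errors and p-values rest on that of the other groups.

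NPL3 encodes an RNA-binding protein of the SR-like type, a family that in animals helps the spliceosome to recognise introns, and GBP2 and HRB1 encode the other proteins of this kind in yeast. UPF1, listed on the array as NAM7, encodes the helicase of nonsense-mediated decay, which destroys RNAs with early stop codons, among them pre-mRNAs that reach the cytoplasm unspliced. Splicing arrays carry several probes per gene, so that an intron or a junction can be read apart from the rest of the transcript. Which of the 3 probes matches which part is not given in the sources used here, and no probe sequences were at hand. A change in 1 probe against another is therefore reported as an unequal change within a gene, without calling it a splicing defect.

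The print order gives each gene 3 probes in a fixed order, the first, the second and the third, and 88 of the 89 genes could be read in this order. HAC1 was printed outside the ordered wells. The probe contrast used here is the second probe's log2 ratio less the third probe's. In 34 of the 88 genes the first and second probe fill 1 row of wells, where the order of those probes rests on the reading direction found in the other wells. The third probe lies on separate plates and is not affected. Dye-flipped arrays were averaged to 1 value per extract pair, and all pairs were fitted together with limma. A probe or contrast is called at a Benjamini-Hochberg adjusted p under 0.05, taken over all 1536 probes or over all 230 genes with 3 ordered probes. Errors after ± are standard errors of that fit.

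Before the results, 3 features of the arrays bear on them. The NPL3 probe was below 0 in 16 of the 17 extract pairs of npl3 deletion over wild type. In the pair labelled replicate 3 at 30 °C it stood at 1.47, against -2.19 to -1.68 in the other 6 pairs at 30 °C. Over all probes the pair labelled replicate 3 correlated at -0.66 to -0.45 with those 6, which correlated at 0.41 to 0.71 among themselves. It was used as labelled. Results of the npl3 deletion at 30 °C are given with and without it, as are some calls in other comparisons. In the npl3 upf1 deletion over wild type the NPL3 probe was at -1.52 and -1.45 and the UPF1 (NAM7) probe at -2.23 and -3.36. Second, replicate 6 at 37 °C for 30 min was a single array with no dye flip. Last, the member contrasts of the 2 arrays of a dye flip correlated at -0.42 to 0.67, above 0 in 15 of 36 pairs. Single values of an extract pair are therefore uncertain. Whether noise or an effect of the dyes lies behind this was not tested. In replicate 6, with no dye flip, an effect of the dyes would not be averaged out.

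In the npl3 deletion after 30 min at 37 °C, the probe contrast rose in 23 of the 88 members and fell in 1. Over all 230 genes 52.2% rose and 1.3% fell. The median contrast was 0.18 over the members, 0.44 over all 230 genes and 0.79 over the 98 ribosomal protein genes. Of the ribosomal genes, 87 of 98 rose, so the share of members called was below the background of the array. That background holds the ribosomal genes, as do the shares over all 230 genes given below. The share called was not counted over other non-ribosomal genes alone. By extract pair, the median over members was 0.18, 0.30, 0.07, 0.30, 0.15 and 0.21 in replicates 1 to 6. All 6 medians lay above 0, and in 6 of 6 pairs the ribosomal median was higher. Over the other non-ribosomal genes with ordered probes the medians were 0.25, 0.26, -0.03, 0.27, 0.13 and 0.30. These lay above the member median in some pairs and below it in others. Within the batches, which are named by the prefix of the array titles, the member median was 0.18 in batch A, 0.30 in batch B, 0.21 in batch D and 0.16 in batch F, with 1, 1, 2 and 2 pairs.

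**Figure D1:**
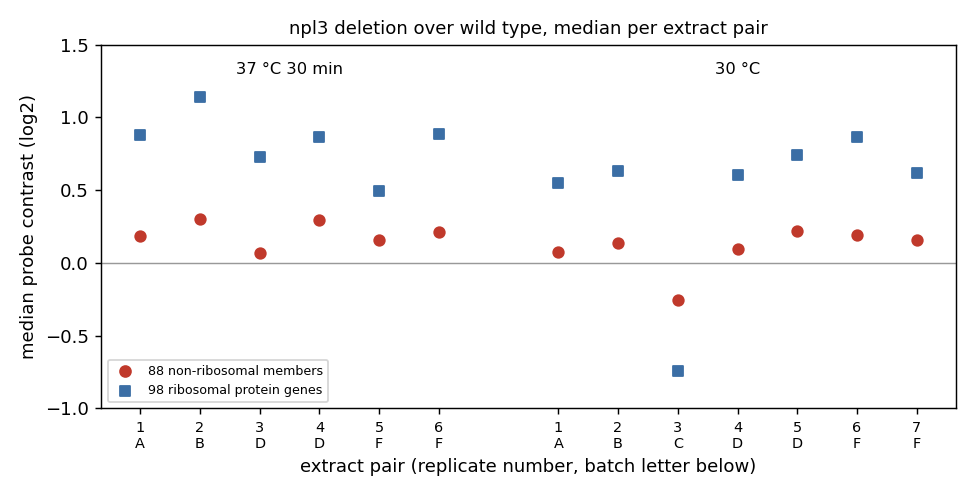
Median probe contrast (log2, second minus the third probe) of the 88 non-ribosomal members (circles) and of the 98 ribosomal protein genes (squares) in each extract pair of npl3 deletion over wild type. The member medians lay between 0.07 and 0.30 at 37 °C, below the ribosomal medians, and replicate 3 at 30 °C, whose NPL3 probe went against its label, lay below 0 in both classes.

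The largest rise with the same sign in every pair was that of IMD4, which encodes an IMP dehydrogenase of guanine nucleotide synthesis and carries a small nucleolar RNA in its intron. Its contrast was 1.47, 1.80, 1.01, 0.18, 1.01 and 0.73 in replicates 1 to 6. All pairs lay above 0, with replicate 4 the lowest. The fitted contrast was 1.03 ± 0.23 (SD 0.57, n = 6, limma adjusted p = 0.000604). HNT2, which encodes a dinucleoside triphosphate hydrolase, had contrasts of 0.48, 1.34, 0.63, 1.56, 0.62 and 1.33. They were all above 0 and fell into a lower and a higher set of 3 pairs, with a fitted value of 0.99 ± 0.21 (adjusted p = 0.000437 with limma). HNT2 is one of the genes whose first and second probe fill 1 row. With those probes exchanged its contrast would be -0.36 (adjusted p = 0.179).

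SFT1, a SNARE of the Golgi, had contrasts of 0.46, 0.80, 0.55, 0.78, 0.33 and 1.58, and the fitted value was 0.75 ± 0.23 (limma adjusted p = 0.00732). Replicate 6, the single array, was the highest of the 6. SAC6 encodes fimbrin, which bundles actin filaments, and its contrast ranged from 0.16 to 1.28 with a fitted value of 0.61 ± 0.16 (limma adjusted p = 0.00279). Its call, too, was lost with the first and second probe exchanged, at 0.31 (adjusted p = 0.152). CPT1, the cholinephosphotransferase of phosphatidylcholine synthesis, was the most even of the large rises, with 0.72, 0.70, 0.31, 0.64, 0.32 and 0.50 (SD 0.19). Its fitted contrast was 0.53 ± 0.13 (limma adjusted p = 0.00119). The other members that rose in every pair were the histone chaperone gene VPS75 at 0.53, the Golgi transport gene GOT1 at 0.51, NCE101 at 0.49, NYV1 at 0.45 and the transcription repressor gene NCB2 at 0.38. NYV1 ranged only from 0.27 to 0.64 over the 6 pairs.

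Other members had large fitted rises with 1 pair or more below 0. STO1, which encodes the large subunit of the nuclear cap-binding complex, had contrasts of -0.03, 1.14, 0.88, 2.03, 1.04 and 1.06. Replicate 1 stood apart from the others, and the fitted contrast was 1.02 ± 0.25 (limma adjusted p = 0.00172). The uncharacterised gene YBR219C followed with -0.15, 1.00, 0.61, 1.80, 0.55 and 1.21, again lowest in replicate 1, and a fitted value of 0.84 ± 0.23 (limma adjusted p = 0.00364). MRK1, which encodes a protein kinase of the glycogen synthase kinase type, was at -0.19 in replicate 1 and between 0.71 and 0.96 in the other 5. TFC3, which encodes a subunit of the RNA polymerase III factor TFIIIC, stood at 0.67 ± 0.25 (limma adjusted p = 0.0263), and its pairs ran from -0.20 to 2.56, the highest being the single array of replicate 6. HNT1, a nucleotide hydrolase gene, reached 2.45 in replicate 3 alone, against -0.15 to 0.65 in the other 5 pairs. Without replicate 6 the call was lost for TFC3, HNT1, CNB1, ERV41, MPT5, NCB2, PAL2, SPT14 and SRC1, and 19 members were called. With only the arrays that had the first strain in Cy5, 12 members were called. They shared 7 with the 24, and CPT1, GOT1, NYV1, SAC6, STO1, YBR219C and MRK1 were among the 17 lost. With only the arrays that had the first strain in Cy3, which leave out replicate 6, 18 members were called. They shared 13 with the 24, and SFT1, NCE101, NCB2, TFC3 and HNT1 were among those lost. NCB2, TFC3 and HNT1 also lost the call without replicate 6, so dye orientation and that array cannot be told apart there. Only HNT2, IMD4 and VPS75 kept their call in both orientations.

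**Figure D2:**
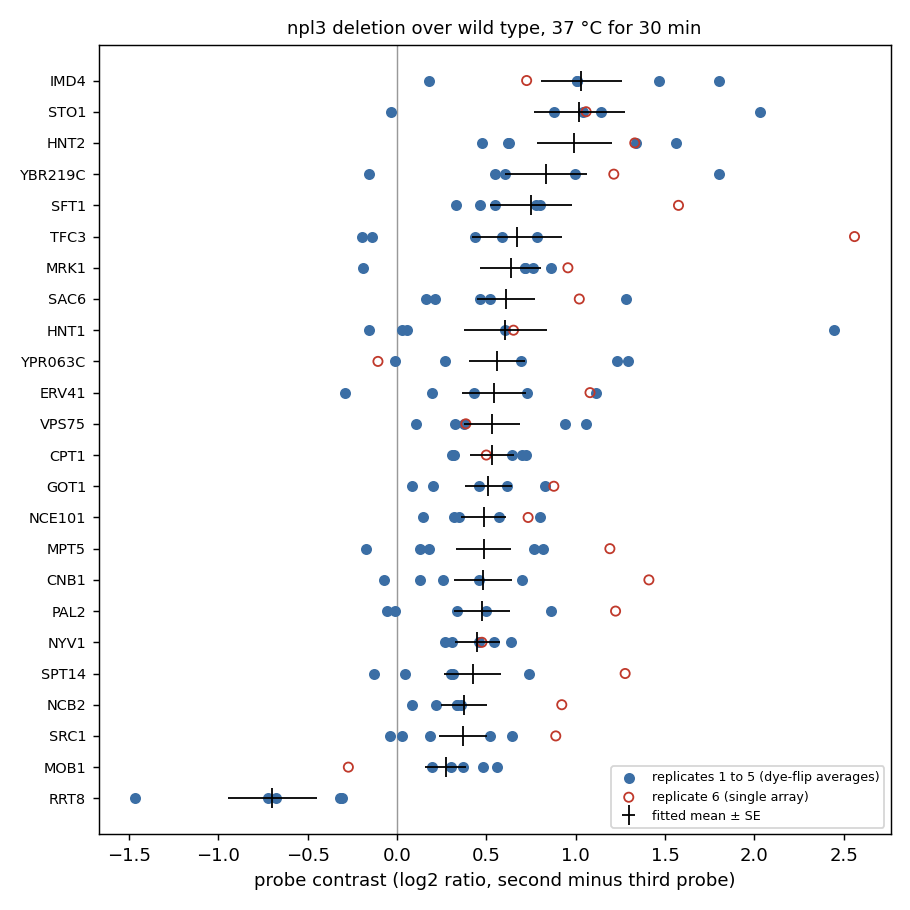
Probe contrast (log2 ratio, second minus the third probe) of the 24 members called in npl3 deletion over wild type after 30 min at 37 °C, by extract pair. Filled points are averages of a dye flip, open points the single array of replicate 6, and bars the fitted mean ± SE. IMD4, HNT2, SFT1, SAC6, VPS75, CPT1, GOT1, NCE101, NYV1 and NCB2 lie above 0 in every pair, and RRT8 lies below 0 in all 5 pairs with a value.

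RRT8, a gene with a role in spore wall assembly, was the 1 member that fell. Its contrast was -0.32, -1.47, -0.68, -0.72 and -0.31 in replicates 1 to 5, and replicate 6 had no value. All 5 were below 0, and the fitted contrast was -0.70 ± 0.25 (SD 0.47, n = 5, limma adjusted p = 0.0197). The third probe of RRT8 rose by 0.51 ± 0.15 (adjusted p = 0.0128 with limma), while the second was at -0.04. The call on RRT8 was lost without replicate 2 (adjusted p = 0.12), with Cy5 arrays only (adjusted p = 0.0766) and with Cy3 arrays only (adjusted p = 0.0734), the contrast staying at -0.88 to -0.51. RPO26, a shared RNA polymerase subunit gene, and RFA2, a subunit gene of replication protein A, had fitted contrasts of -0.55 and -0.50 that did not pass the test. They rest on the single array: replicate 6 was at -3.28 in RPO26, against -0.49 to 0.29 in the other pairs, and at -3.41 in RFA2, against -0.03 to 0.22. Without that array the contrasts were -0.0044 and 0.0858.

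Just inside the threshold were MOB1, a gene of mitotic exit, at 0.27 ± 0.12 (limma adjusted p = 0.0481), HNT1 at 0.61 ± 0.23 (limma adjusted p = 0.0291) and SPT14, a gene of glycosylphosphatidylinositol anchor synthesis, at 0.42 ± 0.16 (limma adjusted p = 0.027). Just outside it were AIM11 at 0.28 ± 0.12 (limma adjusted p = 0.0507), the tRNA deaminase gene TAD3 at 0.45 ± 0.21 (limma adjusted p = 0.0675) and TMA20, which encodes a ribosome-associated protein, at 0.26 ± 0.12 (limma adjusted p = 0.075). MOB1 lost its call with batch as a random block (adjusted p = 0.068) and on leaving out any one of replicates 1 to 5. HNT1 also lost it without replicate 2, without replicate 3, where the contrast was 0.24, and with the probes exchanged, where it was 0.35. AIM11 and TAD3 were called without the pair labelled replicate 3 at 30 °C, where 27 members were called in place of 24. Both were also called without replicate 5 at 37 °C. TMA20 was called with the sign of that 30 °C pair turned, and without replicate 3 at 37 °C. TAD3 was above 0 in 6 of 6 pairs, and MOB1 in 5 of 6. Which side of the threshold a gene lay on did not follow how many of its pairs were above 0.

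Taken singly, 23 of the 267 member probes rose and 28 fell in the same comparison, against 13.2% that rose and 13.2% that fell over all 1536 probes. The calls differed by position in the print, a difference that was not tested. Of the second probes 12 rose and 2 fell, of the third probes 2 rose and 13 fell, and of the first probes 8 rose and 13 fell. The medians were -0.01 for the first, 0.05 for the second and -0.13 for the third probes. The 23 members whose contrast rose have a second probe above the third by selection. Among them the second probe alone was called up in 10 and the third alone was called down in 6. In IMD4 both were called. In CNB1, HNT1, NCB2, SPT14, SRC1 and TFC3 neither was, so that their contrast passed the test without a call on a single probe.

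The second probe of HNT2 rose most, by 1.13 ± 0.20 (limma adjusted p = 0.000215), and lay between 0.55 and 1.84 in the 6 pairs. Its first probe was at -0.22 and the third at 0.14, neither of them called. STO1 showed a second probe at 0.91 ± 0.19 and a first probe at -0.49 ± 0.12, both called, and the third at -0.11 that was not. Each of the 6 pairs had the second probe above 0 and the first below 0. In YBR219C the first probe, at 0.79 ± 0.20, and the second, at 0.68 ± 0.19, rose together, and the third was at -0.16. SFT1, NYV1 and MRK1 had the same form, with both first and second probes called up. The largest rise of a first probe without a called second was that of BIG1, a gene of cell wall glucan synthesis, at 0.60 ± 0.13 (limma adjusted p = 0.00154).

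Falls had another form. In GOT1 the first probe fell by 0.57 ± 0.10 (limma adjusted p = 0.000215) and the third by 0.61 ± 0.12 (limma adjusted p = 0.00102), while the second stood at -0.10. The first and the third probe were below 0 in 6 of 6 pairs. VPS75 had its first probe at -0.33 and the third at -0.55, both called, with the second at -0.02. IMD4 combined falls of its first probe, -0.63 ± 0.15, and the third probe, -0.57 ± 0.16, with a rise of the second by 0.46 ± 0.14. In OM14, which encodes a protein of the mitochondrial outer membrane, the second probe fell by 0.56 ± 0.16 (limma adjusted p = 0.0123) and the third by 0.38 ± 0.12. Its contrast of -0.18 did not pass the test. ASC1, which encodes a ribosome-bound scaffold protein and carries a small nucleolar RNA in its intron, had the first and the third probe called down, at -0.52 and -0.43, and a second probe at -0.18.

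**Figure D3:**
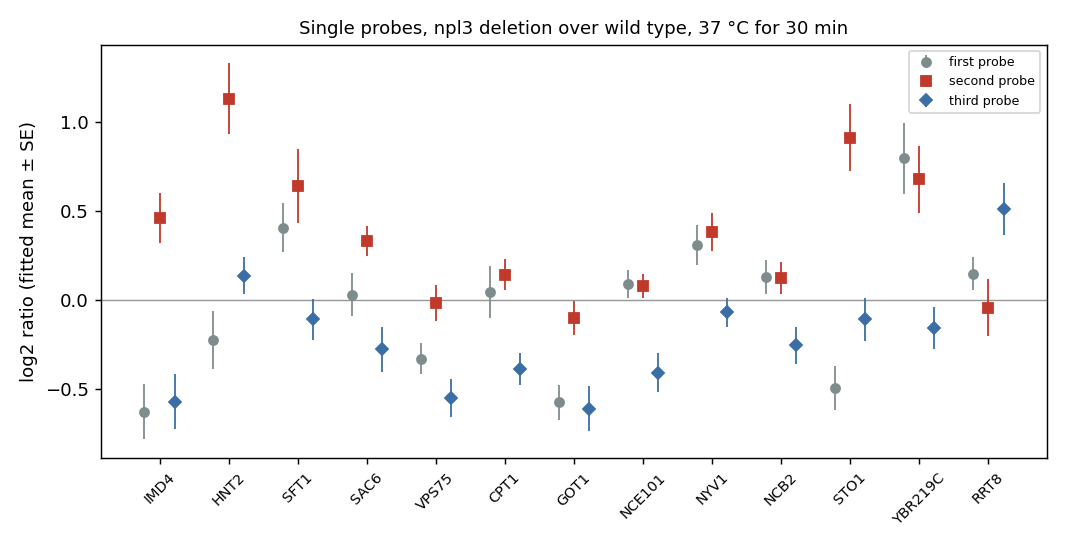
Fitted log2 ratios ± SE of the first, the second and the third probe in npl3 deletion over wild type after 30 min at 37 °C, for the 10 largest contrasts of 1 sign in every pair and for STO1, YBR219C and RRT8. In HNT2 and STO1 the second probe stands above both others, in YBR219C, SFT1 and NYV1 the first and second stand above the third, and in IMD4, GOT1 and VPS75 the first and the third lie below the second.

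By role, the calls after 30 min at 37 °C fell in several lists of genes, to be read against 23 rises in 88 members and 52.2% of all genes. The lists are partial, and members can have a role without standing in its list. STO1 and the RNase P subunit gene POP8 are outside the RNA processing list, SAC6 is outside the cytoskeleton list, and YML6, a mitochondrial ribosomal protein gene, is outside the translation list. The counts are therefore counts of the lists and not of the roles. Of 12 members in transcription and chromatin 4 rose, with a median of 0.30, from RPO26 at -0.55 to TFC3 at 0.67. Of 23 in membrane traffic, vacuole and cell surface 6 rose and 1 fell, with a median of 0.21, from RRT8 to SFT1. Of 11 in mitochondria and metabolism 4 rose, with a median of 0.19, from the mitochondrial DNA-binding protein gene RIM1 at -0.26 to IMD4. Of 10 in cytoskeleton, cell cycle and signalling 3 rose, with a median of 0.14, from the actin patch gene LSB3 at -0.02 to MRK1. VPS75 is counted in both chromatin and membrane traffic.

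In the remaining lists no contrast was called. The 8 members in translation, tRNA modification and the mitochondrial ribosome had a median of 0.23, between DTD1, which encodes a D-aminoacyl-tRNA deacylase, at 0.05 and the elongation factor gene TEF4 at 0.56 ± 0.30 (limma adjusted p = 0.116). TEF4 was at 1.42 and 1.84 in replicates 1 and 2 and between -0.57 and 0.24 in the other 4. The 5 members in DNA replication, repair and meiosis had a median of 0.02, between RFA2 and the meiotic pairing gene HOP2 at 0.17. The 2 in the RNA processing and export list, the nuclear pore gene NSP1 and the export factor gene MTR2, were at 0.15 and 0.22. Of the 18 ordered members in none of these lists 7 rose, with a median of 0.25, from the uncharacterised gene YNL050C at -0.15 to STO1.

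At 30 °C, with all 7 extract pairs, the contrast rose in 10 members and fell in none, against 25.7% of all 230 genes that rose. Without the pair labelled replicate 3, 20 members rose and 1 fell, against 47% and 1.3% of all genes. STO1 led, with contrasts of 0.55, 1.57, -0.98, 0.93, 1.79, 1.82 and 1.12 in replicates 1 to 7. The pair labelled replicate 3 was the only one below 0. The fitted contrast was 0.98 ± 0.23 (limma adjusted p = 0.0039) with it and 1.27 ± 0.18 (limma adjusted p = 8.43e-07) without it. YBR219C was at 0.77 ± 0.20 (limma adjusted p = 0.00749) with the pair and 1.02 ± 0.17 without it, and its other 6 pairs lay between 0.57 and 1.66.

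IMD4, SFT1 and MRK1 rose at 30 °C too. IMD4 was at 0.64 ± 0.20, with -1.27 in the pair labelled replicate 3 and 0.24 to 1.20 in the others, and at 0.93 ± 0.15 without that pair. SFT1 was at 0.64 ± 0.20 and 0.94 ± 0.14, and MRK1 at 0.62 ± 0.15 and 0.78 ± 0.14, with and without it. The other rises were those of EFB1, at 0.58 with the pair and 0.79 without it, HNT2 at 0.51 and 0.77, the prefoldin gene GIM5 at 0.38 and 0.51, CPT1 at 0.33 and 0.44 and GOT1 at 0.33 and 0.45. In HNT2 the pair labelled replicate 3 was at -1.21, against 0.39 to 1.31 in the other 6. EFB1, an elongation factor gene with a small nucleolar RNA in its intron, had been at 0.48 ± 0.26 (limma adjusted p = 0.113) at 37 °C with 5 of 5 pairs above 0. Without replicate 3, ASC1 was called down at -0.30 ± 0.13 (limma adjusted p = 0.0475). With all pairs it was at -0.22 ± 0.12 (limma adjusted p = 0.196).

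Of the single probes, 7 member probes rose and 1 fell at 30 °C, against 3.32% and 0.977% of all probes. Among the rises, YBR219C had its first probe at 0.86 ± 0.18 and its second at 0.58 ± 0.17, and STO1 its second at 0.80 ± 0.17 (limma adjusted p = 0.0144). The fall was that of the second probe of OM14, at -0.49 ± 0.14. The first probe of STO1, called down after 30 min at 37 °C, was at -0.25 ± 0.11 (limma adjusted p = 0.223) at 30 °C. The difference between 30 min at 37 °C and 30 °C was called in none of the 88 contrasts with limma, nor in any other of the 230 genes (0%). At an unadjusted p under 0.05 the difference was found in 1 member, ASC1, at 0.47 ± 0.19. The median difference over members was 0.11 with all pairs and 0.07 without the pair labelled replicate 3. Within batches A, B, D and F, which held both temperatures, it was 0.14, 0.11, 0.03 and -0.0023.

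After 15 min at 37 °C, with 2 extract pairs over wild type, 4 members rose, against 10% of all genes. The fit also used the pairs that set the npl3 deletion against the upf1 and the npl3 upf1 deletion. YBR219C was at 1.56 and 1.39 in the pairs, with a fitted contrast of 1.34 ± 0.32 (limma adjusted p = 0.0196). STO1 was at 1.54 and 1.12 (fitted 1.25 ± 0.36, limma adjusted p = 0.0307), and HNT2 at 1.39 and 1.20 (fitted 1.18 ± 0.30, limma adjusted p = 0.0211). LSB3 was at 0.71 and 0.85 (fitted 0.69 ± 0.20, limma adjusted p = 0.0307), whereas after 30 min its 6 pairs ran from -0.48 to 0.68. Leaving out either pair ended all 4 calls, and leaving out the pair labelled replicate 3 at 30 °C raised their number to 10, against 27.8% of all genes, because the spread is shared between groups. Of single probes 6 rose and none fell, against 3.45% and 0.716% of all probes. The second probe of HNT2 was the highest, at 1.51 ± 0.31. At 16 °C the member median of the 1 pair was 0.13, and after 45 min at 37 °C it was 0.05. The arrays of the dye flip correlated at 0.61 and -0.32 over all probes in these pairs, and the NPL3 probe was at -1.75 and -0.63. No member was called by limma in either, with 3 and 1 at an unadjusted p under 0.05, against 0.435% and 0% of all genes called. Without the pair labelled replicate 3 at 30 °C, EFB1 at 1.91 (limma adjusted p = 0.0262) and IMD4 at 1.87 (limma adjusted p = 0.00825) were called at 16 °C, against 1.74% of all genes. With that pair their values were the same and the adjusted p of both was 0.203.

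The npl3 upf1 double deletion had more members called. At 30 °C the contrast rose in 43 of 88 members against 68.7% of all genes, and none fell. The member median was 0.57, that of all genes 0.88 and that of ribosomal genes 1.92. After 15 min at 37 °C, 15 members rose against 40.9% of all genes, with a median of 0.23. There was 1 extract pair over wild type at each temperature, and the fit also used the pairs that set the double deletion against a single one. The errors and p-values rest on spread shared with other groups. At 30 °C the pairs over wild type and against the npl3 deletion were of batch C, which also held the pair labelled replicate 3. The pair over the upf1 deletion was of batch F. After 15 min at 37 °C the pairs were of batch D. For the double deletion, temperature and batch therefore cannot be told apart.

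At 30 °C STO1 again had the highest contrast, 1.93 in the pair over wild type and 1.88 ± 0.42 fitted (limma adjusted p = 0.00033). The Cy5 and Cy3 arrays of that pair gave 1.84 and 2.02. SFT1 was at 1.48 ± 0.37 and GCR1, which encodes an activator of glycolytic genes, at 1.46 ± 0.32 (limma adjusted p = 0.000318). NYV1 was at 1.41 ± 0.20 (limma adjusted p = 2.29e-06) and CPT1 at 1.38 ± 0.21 (limma adjusted p = 3.11e-06), the members with the smallest errors among these. In CPT1 the arrays of the flip gave 1.11 and 1.88, and in NYV1 1.28 and 1.14. Each of the 5 genes was above 0 on both arrays.

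By position, 27 second probes rose and none fell, 10 first probes rose and 3 fell, and of the third probes 0 rose and 6 fell. Over all 1536 probes 14.6% rose and 6.9% fell. Of the 43 members with a called contrast, and so a second probe above the third by selection, the second alone was called up in 25. The third alone was called down in 3. YPR063C, an uncharacterised gene, had both, and 14 members had neither. By list, 14 of 23 members were called in membrane traffic, 7 of 12 in transcription and chromatin, and 6 of 10 in cytoskeleton, cell cycle and signalling. In the translation list 1 of 8 was called, TAD3 at 0.92, while YML6, outside it, was called at 0.82 ± 0.22 (limma adjusted p = 0.0025). In the list of DNA replication, repair and meiosis limma called 0 of 5, with a median of 0.20. The difference between lists was not tested.

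After 15 min at 37 °C the leading members were STO1 at 1.503 ± 0.48 (limma adjusted p = 0.0149), YBR219C at 1.47 ± 0.43, GCR1 at 1.23 ± 0.37, LSB3 at 1.16 ± 0.26 and HNT2 at 1.11 ± 0.40. All 5 were above 0 in the pair over wild type, between 0.93 and 1.39. GCR1 had a second probe at 1.20 and the first and the third at 0.25 and -0.03, and the second was called. In the npl3 deletion after 30 min at 37 °C the second probe of GCR1 was at -0.08 and the first and the third had been called down, at -0.28 and -0.39.

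**Figure D4:**
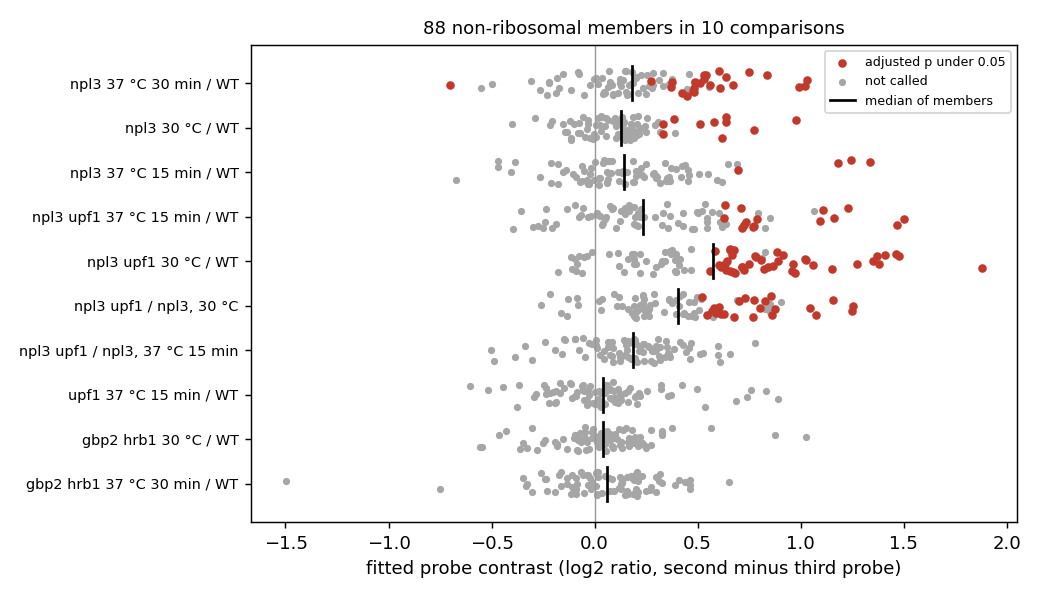
Fitted probe contrasts (log2 ratio, second minus the third probe) of the 88 ordered members in 10 comparisons. Each point is 1 gene, red where the adjusted p was under 0.05, and the black line is the median of the members. The npl3 upf1 deletion at 30 °C has the highest median, 0.57, with 43 members called, and the gbp2 hrb1 deletion has none called at either temperature.

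Adding the upf1 deletion to the npl3 deletion raised the contrast further in some members at 30 °C. There the npl3 deletion and the double deletion were set against each other in batch C only. Set against the npl3 deletion, the double deletion had 23 members called up, against 54.3% of all genes, and none called down. Without the pair labelled replicate 3, STO1 at 0.79, SFT1 at 0.72 and YNL050C at 0.82 were called up as well (limma adjusted p = 0.0255, 0.0116 and 0.048). SEC17, which encodes the SNARE disassembly factor alpha-SNAP, led at 1.25 ± 0.21 (limma adjusted p = 4.47e-05). Its pairs at 30 °C gave 1.48 for the double deletion over wild type, 1.41 over the npl3 deletion and 0.14 over the upf1 deletion. In the npl3 deletion after 30 min at 37 °C SEC17 had been at 0.04 ± 0.13. HNT1 followed at 1.25 ± 0.37, NYV1 at 1.16 ± 0.20 (limma adjusted p = 4.59e-05), GCR1 at 1.07 ± 0.31 and CPT1 at 1.04 ± 0.20. In SEC17, HNT1, NYV1, GCR1 and CPT1 the second probe rose, by 0.81 to 1.14, and the third probe was called in none of them. With first and second probes exchanged in the genes whose probes fill 1 row, HNT1 and NYV1 among them, 13 members were called in place of 23. After 15 min at 37 °C no member was called against the npl3 deletion by limma, with 3 at an unadjusted p under 0.05, against 4.35% of all genes called. The median over members was 0.19.

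The upf1 deletion alone had no member called after 15 min at 37 °C by limma, with 4 at an unadjusted p under 0.05, against 0.435% of all genes. STO1 was at 0.20 ± 0.48 and NYV1 at 0.13 ± 0.23 there. At 30 °C, where the upf1 deletion reached wild type only through the other strains, NYV1 alone among the members was called, at 0.94 ± 0.25 (limma adjusted p = 0.0224), against 6.96% of all genes. Without the pair labelled replicate 3, 10 members were called in that comparison, against 33.5% of all genes. The direct pair of upf1 over npl3 deletion had arrays that correlated at -0.05 over all probes. Set against the upf1 deletion, the double deletion had 1 member called at each temperature. These were the meiotic checkpoint gene PCH2 at 30 °C, at 0.81 ± 0.24 (limma adjusted p = 0.0145), and CPT1 after 15 min at 37 °C, at 1.15 ± 0.31 (limma adjusted p = 0.033). Of all genes 25.7% and 9.57% rose there. Without the pair labelled replicate 3, 4 and 3 members were called, PCH2 and CPT1 among them, against 32.2% and 23.9% of all genes. After 30 min at 37 °C, limma called no member in upf1 over wild type, with 2 at an unadjusted p under 0.05. It called none in Dupf1+Dnpl3 over Dnpl3, with 4. Of all genes 0.87% rose in the former and 0.87% in the latter. Without the pair labelled replicate 3, COX5B, a cytochrome c oxidase subunit gene, was called in the latter at -1.40 ± 0.37 (limma adjusted p = 0.025), against 0.435% of all genes that fell. Whether the double deletion went beyond the sum of the single deletions was tested as an added comparison. It was called by limma in no member at either temperature, with 3 members at 30 °C and 0 after 15 min at 37 °C at an unadjusted p under 0.05, and in 0% of all genes. The errors are wide in this sum, so members that act additively and members that do not were not separated.

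In the gbp2 hrb1 double deletion no member was called at 30 °C or after 30 min at 37 °C by limma, and no other gene either (0% and 0%). At an unadjusted p under 0.05 there were 3 members at 30 °C and 1 at 37 °C. The member medians were 0.04 and 0.06. The highest contrast at 30 °C was that of the chromatin gene NHP6B at 1.03 ± 0.35, whose 2 pairs stood at 2.22 and -0.16 and so did not agree in sign. The lowest at 37 °C was RRT8 at -1.498 ± 0.39, with -0.34 and -2.66. Its second probe was the 1 single member probe called there, at -1.29 ± 0.25 (limma adjusted p = 0.0145), against 0.326% of all probes that fell, and RRT8 was the member that fell in the npl3 deletion. In the hrb1 deletion at 30 °C, a single pair, DTD1 was called at 2.59 ± 0.46 (limma adjusted p = 0.00146), against 0.435% of all genes, but its arrays gave 5.48 with Cy5 and -0.30 with Cy3. The rise was present on 1 array of the dye flip and absent on the other, and the HRB1 probe of that pair was at -0.43, against -1.35 and -1.72 in the hrb1 pairs at 37 °C. In the hrb1 deletion at 37 °C and the gbp2 deletion at both temperatures limma called no member, with 5 for hrb1, and 2 at 30 °C and 8 at 37 °C for gbp2, at an unadjusted p under 0.05, and 0% of all genes rose in these.

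HAC1 encodes the transcription factor of the unfolded protein response, and its intron is removed by the kinase Ire1 and tRNA ligase rather than by the spliceosome. Its 3 probes have no print order. In the npl3 deletion after 30 min at 37 °C they were at 0.24 ± 0.17, 0.31 ± 0.16 and 0.56 ± 0.14, the last of them called (limma adjusted p = 0.00383) and above 0 in 5 of 6 pairs. At 30 °C they were at 0.29, 0.36 and 0.39, with none called and the lowest adjusted p at 0.0679. In the gbp2 hrb1 deletion all 6 values lay between 0.05 and 0.24, none called.

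Over the 22 comparisons fitted, 52 of the 88 members had a contrast called at least once and 36 had none, against 77% of all 230 genes called at least once. HNT2, STO1, YBR219C and CPT1 were called in 5 or more of 10 comparisons. These comparisons share extract pairs and strains, so the repeats are not independent. The 36 members with no call had contrasts of -0.55 to 0.56 in the npl3 deletion after 30 min at 37 °C, and 14 of them had no single probe called in any comparison either.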

How the data were processed

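The deposited value table holds 2-colour arrays. It states no scale, and its values were taken as the authors' log2 ratios. Scanner settings, background correction and normalization were not named in the labels, and signal over background was not analysed here. The 6 spots of a probe were averaged, then the arrays of a dye flip, which gave 37 extract pairs. Between 0.18% and 35.4% of an array's spots had no value. Ratios were read as first over second strain in both dye orientations. This direction is inferred: dye flips correlated at -0.36 to 0.84 (median 0.30), with 26 of 36 correlations above 0, and deleted genes' own probes were low.

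Probe order came from spot positions, where 222 of 222 neighbouring wells of different genes followed locus tags. Symbols came from the platform's table, checked against the R64 gene table.

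Pairs were fitted with limma 3.58.1 in R 4.3.3 (17 coefficients, 20 residual degrees of freedom, wild type at 0). Features with a value in at least 50% of pairs were tested, without imputation. Replicate numbers follow accession order only. Alternatives changed the spot summary, centring, dye orientation, probe pairing, block and pairs used.

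The members, the role groups and the tests were chosen with earlier results of these data known. The text names, after 30 min at 37 °C, the 10 largest called rises with 1 sign in every pair, every called fall, the 3 members nearest the threshold on either side, the 6 called probes that changed most each way and the extremes of each role group. For other comparisons it names the 5 largest called rises and every called fall. Genes outside these parts, among them ASC1, EFB1, CNB1, YML6 and COX5B, were named after their values were seen.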

Additional observations from a re-analysis of the deposited data

Results flagged for a closer look

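In groups of 4 to 10 extract pairs, 62 sets of values were examined for a pair far from all others (Dixon's test), and 16 were marked. Chance marks about 1 in 20 of sets chosen without regard to their values. The genes marked here were named by rules on these same values, so that rate does not apply to them. The sets also share pairs. After 30 min at 37 °C in the npl3 deletion, 7 of the 9 marked values were from the single array of replicate 6: 2.56 in TFC3, 1.59 in TAD3, 0.92 in NCB2, 0.83 in MTR2, -2.45 in RIM1, -3.28 in RPO26 and -3.41 in RFA2. The others were 2.45 in replicate 3 for HNT1 and -0.19 in replicate 1 for MRK1.

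At 30 °C, 6 of the 7 marked values were from the pair labelled replicate 3, whose NPL3 probe went against its label: -1.35 in SFT1, -1.27 in IMD4, -1.21 in HNT2, -0.98 in VPS75, -0.48 in AIM11 and -0.25 in the median over all members. The remaining one was -0.73 in replicate 7 for RIM1. What sets these pairs apart was not tested.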

How the results depend on the processing

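Counts of members with a called contrast depended most on dye orientation, on the pair labelled replicate 3 at 30 °C and on the probes compared. The causes were not tested. For the npl3 deletion after 30 min at 37 °C, the 24 called became 12 with arrays of the first strain in Cy5 only (7 of the 24 kept, 17 lost and 5 gained), 15 with the spread of its own pairs only, 10 with the first set against the last of the 3 probes and 19 to 27 on leaving out 1 pair. With Cy3 arrays only, which leaves out replicate 6, they became 18 (13 kept). With first and second probes exchanged where they fill 1 row they became 21 (19 kept). The number was 27 without the pair labelled replicate 3 at 30 °C and 29 with its sign turned. At 30 °C the 10 called became 21 without the pair labelled replicate 3, 29 with its sign turned, 2 with Cy5 arrays only, 0 with its own pairs only and 3 to 21 on leaving out 1 pair (3 without replicate 4). After 15 min the 4 called became 10 without or with the turned pair, 2 with batch as a random block, 2 with Cy5 and 14 with Cy3 arrays only, and 0 without either pair. For npl3 upf1 over wild type, the 15 called after 15 min at 37 °C became 31 with Cy3 arrays only, and the 43 at 30 °C became 18 with Cy5 arrays only. For npl3 upf1 over npl3 at 30 °C the 23 called became 9 with Cy5 arrays, 14 with Cy3 arrays and 13 with first and second probes exchanged where they fill 1 row, an alternative added after the data were seen. For gbp2 hrb1 the 0 called became 0 to 2 at 30 °C and 0 to 1 at 37 °C on leaving out 1 pair, and 1 at 37 °C with the median of the spots.

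Of single probes, the 51 called after 30 min at 37 °C became 28 with Cy5 arrays only, 13 with own pairs only and 39 to 52 on leaving out 1 pair. At 30 °C the 8 became 31 without the pair labelled replicate 3, 48 with its sign turned, 0 with own pairs only and 0 to 31 on leaving out 1 pair (0 without replicate 2). After 15 min the 6 became 13 without that pair, 16 with it turned, 3 with the block, 39 with Cy3 arrays only and 0 to 2 on leaving out 1 pair. Contrasts after 30 min that turned direction after a call did so with other probes compared. In first-minus-third contrasts they were HNT2 at -0.3605, STO1 at -0.3848, MOB1 at -0.0751 and IMD4 at -0.0556. In second-minus-first contrasts they were NCB2 at -0.0082 and NCE101 at -0.0131, and with the exchange HNT2 was at -0.3605.

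Contrasts without a call turned direction as follows, and none of them was called after the turn. In first-minus-third contrasts they were AIM11 at -0.007, DTD1 at -0.122, NSP1 at -0.136, LSB3 at 0.0223, RIM1 at 0.0295 and RPO26 at 0.1324. In second-minus-first contrasts they were HOP2 at -0.4459, MTR2 at -0.0406, TMA20 at -0.0257 and YNL050C at 0.0018. With the exchange they were DTD1 at -0.122 and RPO26 at 0.1324. With Cy3 arrays only they were DTD1 at -0.1073, LSB3 at 0.1221, RFA2 at 0.3476, RIM1 at 0.2382, RPO26 at 0.2407 and YNL050C at 0.0418, and with Cy5 arrays only HOP2 at -0.0086. With the median of the spots they were DTD1 at -0.0141 and HOP2 at -0.0177. On leaving out 1 pair the values ran in DTD1 from -0.0601 to 0.186, LSB3 from -0.1621 to 0.0709, NSP1 from -0.0062 to 0.2999, RFA2 from -0.6409 to 0.0858, RIM1 from -0.3849 to 0.1737 and YNL050C from -0.2664 to 0.126. RFA2, RIM1 and YNL050C turned without replicate 6. No named contrast changed sign under the other 6 kinds of setting run. No paired analysis by replicate number was possible because replicate numbers were given in accession order and name no shared extract. Batches that held both temperatures gave the within-batch differences of the report.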

Other observations

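A pair of arrays compared prp2-1 with prp5-1 and with prp8-1, strains with mutations in splicing factors, once each, after 30 min at 37 °C and without a dye flip. The median member contrast was 0.15 on the first, with 54 of 88 members above 0, and 0.04 on the second, with 47 above 0. There is no replicate for either value.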
